A study of Mus musculus with 2 samples.

Results

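Cytosolic ribosomal proteins build the 2 subunits of the ribosome outside the mitochondria, and their messenger RNAs were followed here through the immune cells of mouse liver. The genes were taken by symbol: Rpsa, Rplp0, Rplp1, Rplp2 and every symbol made of Rpl or Rps and a number, without pseudogene symbols and without the Rps6k kinases. This gave 87 of the 33696 genes in the files, called member genes below. The data are 2 libraries of CD45+ cells (CD45, the product of Ptprc, marks blood-derived cells), read with 10x Genomics 3' chemistry, in which each captured messenger RNA molecule is counted as 1 UMI (unique molecular identifier). Both libraries came from wild-type C57BL/6J mice. The UT library is from untreated mice of matched age. The ConA library is from mice given concanavalin A, a plant lectin that activates T cells, into a vein at 10 mg/kg, with 1 dose in each of 3 weeks, a schedule named in the labels as an immune tolerance model. The sources used here give neither the number of mice behind a library nor their age. Each group is a single library, so nothing between the groups could be tested or checked in replicates, and what differs may be the libraries rather than the treatment. Intervals are exact 95% intervals for the counting of UMIs alone.

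Most ribosomal proteins are present once per ribosome, and their messenger RNAs are among the most abundant of most cells. Most of these messengers begin with a short stretch of pyrimidines, the 5' terminal oligopyrimidine (5' TOP), through which the mTOR pathway and the RNA-binding protein LARP1 control their translation and stability. Resting naive lymphocytes hold these messengers ready, neutrophils are short-lived cells with little RNA, and plasma cells devote much of their RNA to immunoglobulin.

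The 5' end is where the 5' TOP lies, so the start regions of some members named below are shown. In 7 of them a pyrimidine run begins at the annotated start or within 5 bases of it, and 5 have none there. RefSeq (GRCm38.p6) promoter sequences matched 67 of the 87 members, and the start listed first was used for each. A cytosine at the annotated start followed by further C or T, in a run of at least 5 bases on the gene's strand, was present in 13 of these 67 (19.4%) and in 2.49% of all 27025 promoters in that table. With the first cytosine allowed up to 5 bases on either side of the annotated start, the figures were 30 of 67 (44.8%) and 18.5%. A missing run says only that these letters do not stand at this annotated start. Each line gives 30 bases, 15 before the annotated start and 15 from it, with the run in capitals. The build differs from the one named for the counts, and no count was joined by position.
Rpl35 (chr2:39005117-39005146, minus strand): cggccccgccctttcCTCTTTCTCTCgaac
Rps27 (chr3:90213634-90213663, minus strand): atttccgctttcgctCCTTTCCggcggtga
Rpl28 (chr7:4792950-4792979, plus strand): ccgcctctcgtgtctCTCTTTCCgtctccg
Rpl7a (chr2:26910792-26910821, plus strand): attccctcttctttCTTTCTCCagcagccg
Rps9 (chr7:3704026-3704055, plus strand): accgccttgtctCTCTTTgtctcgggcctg
Rpl31 (chr1:39367836-39367865, plus strand): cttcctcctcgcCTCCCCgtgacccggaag
Rps2 (chr17:24720048-24720077, plus strand): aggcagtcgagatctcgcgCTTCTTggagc
Rpl36al (chr12:69184053-69184082, minus strand): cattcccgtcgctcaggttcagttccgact
Rps28 (chr17:33824548-33824577, minus strand): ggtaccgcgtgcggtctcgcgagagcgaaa
Rplp0 (chr5:115559452-115559481, plus strand): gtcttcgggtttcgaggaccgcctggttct
Rpl37a (chr1:72711245-72711274, plus strand): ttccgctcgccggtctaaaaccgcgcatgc
Rpl27 (chr11:101442230-101442259, plus strand): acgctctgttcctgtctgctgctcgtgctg
In Rpl35, Rps27 and Rpl28 the run begins at the annotated start, in Rpl7a, Rps9, Rpl31 and Rps2 it begins within 5 bases of it, and Rpl36al, Rps28, Rplp0, Rpl37a and Rpl27 have none there. The lines hold a larger part with a run than the 67 members do.

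There were 71289226 UMIs on 18088 barcodes in UT and 73589264 UMIs on 18762 barcodes in ConA. The filters left 17632 and 17767 cells, with medians of 3128 and 3471 UMIs, and 82 barcode sequences occurred in both libraries. At least 1 Ptprc UMI was found in 93.8% of UT and 92.1% of ConA cells. Cells were placed in 10 gates by counting detected marker genes. A cell that met the gates of 2 lineages was left out, apart from some overlaps given with the processing below. The gates took 67.8% of UT and 59.4% of ConA cells. The 6 T markers summed to between 3304 and 5219 CPM (UMIs per 1000000 UMIs of the gate) in the T gates and to at most 219 CPM in the B, neutrophil, monocyte and macrophage, conventional dendritic (cDC) and plasmacytoid dendritic (pDC) gates. They were less low in the gate of natural killer cells, at 479 CPM in UT and 583 CPM in ConA. In the gate of type 1 innate lymphoid cells they summed to 1186 and 1018 CPM. The 8 B markers summed to 12662 CPM in the UT and 13596 CPM in the ConA B gate, and to at most 286 CPM in every other gate but plasma. Neutrophil genes, which reach cells of other gates as free RNA, were higher in the UT library: they summed to 2305 CPM in the UT and 859 CPM in the ConA B gate. Haemoglobin UMIs ran the other way, at 0.159% and 0.780% of the UMIs of the B gates. Free RNA was estimated at between 4.3% and 12.6% of a gate's UMIs. All 87 members had a UMI in the UT library and 86 in the ConA library.

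Naive T cells gave the largest share of their UMIs to ribosomal protein messengers and neutrophils the smallest, in both libraries. In the UT library the members made up 22.5% of the UMIs of the naive T gate (1086 cells), 15.6% in non-naive T cells (658 cells), 14.1% in cDCs (131 cells), 13.9% in B cells (4031 cells), 13% in natural killer (NK) cells (579 cells) and 12.5% in type 1 innate lymphoid cells (ILC1, 54 cells). Monocytes and macrophages (2438 cells) and pDCs (386 cells) were both at 10.4%, and neutrophils (2587 cells) were at 2.83%. The UT plasma gate held only 6 cells (18.2%) and enters no comparison. In the ConA library the order was naive T at 20.7% (1377 cells), cDC at 14.5% (318 cells), non-naive T at 14.1% (3089 cells), monocytes and macrophages at 12.9% (629 cells), B at 12.7% (3173 cells), NK at 11.3% (562 cells), pDC at 10.5% (486 cells), ILC1 at 10.4% (212 cells), plasma at 9.13% (209 cells) and neutrophils at 3.51% (504 cells). Immunoglobulin genes took 37.4% of the UMIs of the ConA plasma gate. With mitochondrial, immunoglobulin, T cell receptor and haemoglobin genes and Malat1 taken out of the total, ConA plasma cells were at 15.6%, above ConA B cells at 13.6%, so their place in the order depends on the total chosen.

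**Figure D1:**
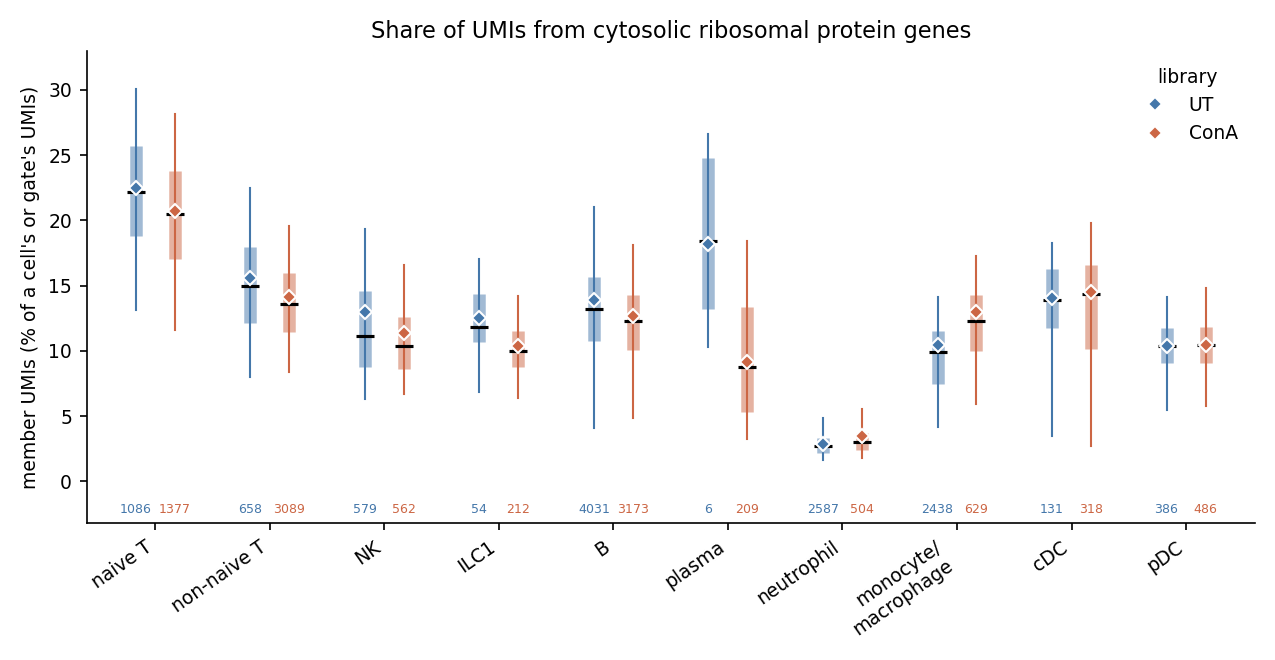
Share of UMIs from the 87 member genes (vertical axis, percent) in 10 gates of the UT and ConA libraries. Diamonds are the share over the summed UMIs of a gate, black dashes the median cell, boxes the middle 50% of cells, lines the 5th to 95th percentile of cells, and small numbers the cells. Naive T cells are highest and neutrophils lowest in both libraries.

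Single cells of a gate spread widely around these sums. The middle 50% of UT naive T cells lay between 18.8% and 25.7%, and that of UT non-naive T cells between 12.1% and 18%, so these ranges did not overlap. The neutrophil cells stayed low throughout: their 95th percentile was 4.83% in the UT and 5.56% in the ConA library, below the 5th percentile of the naive T cells at 13.1% and 11.6%. In the UT library the median neutrophil held 64 member UMIs and the median B cell 311, at similar median depths of 2473 and 2493 UMIs. With the estimated free RNA subtracted, the neutrophil share was 1.46% in the UT and 2.36% in the ConA library.

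Within the T cells the member genes separated naive from non-naive cells in both libraries. The gates used naive genes (Ccr7, Lef1, Tcf7 and others) and effector or memory genes (Ccl5, Nkg7, Cxcr6 and others), none of them a member. The share was 1.44-fold higher in naive cells of the UT library (log2 ratio of non-naive over naive -0.53, 95% interval -0.53 to -0.52) and 1.47-fold higher in those of the ConA library (-0.56, -0.56 to -0.55). Of the non-naive cells, 80.9% in UT and 83.7% in ConA lay below the lower quartile of the naive cells. The difference ran through nearly the whole family. A gene is counted as higher when its level in one sum is at least 25% above that in the other, as lower when it is at least 20% below, and as measured with at least 50 CPM in 1 of the 2 sums and 100 UMIs in both together. Rps19bp1, Rpl3l, Rpl39l, Rps23rg1 and Rpl10l were too low to be measured in either library, and Rpl7l1 in the ConA library. In the UT library 71 of 82 measured members were lower in non-naive cells and 2 were higher, where 19.5% of all 4075 measured genes were lower and 38.3% higher. In the ConA library 68 of 81 were lower and 1 was higher, against 17.3% lower and 33.4% higher among 4109 genes. The median member was at -0.51 and -0.55, the median of all measured genes at 0.16 and 0.12. Of 81 members measured in both libraries, 64 were lower in both and 79 lay below 0 in both, and the order of members was alike (Spearman's rho 0.75 across 81 members, which share their cells and are no independent replicates).

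The lowest 3 members were small subunit proteins in the UT library (Rps20, Rps28 and Rps29), and Rps20, Rpl35 and Rpl31 in the ConA library. Rps20 stood at 5957 CPM in naive and 3135 CPM in non-naive cells of the UT library (log2 ratio -0.93, interval -0.96 to -0.89) and at 5079 and 2126 CPM in the ConA library (-1.26, -1.28 to -1.23). These values do not overlap between the gates. Rps28 stood at 3245 and 1801 CPM (-0.85) in UT and at 2954 and 1514 CPM (-0.96) in ConA. Rps29 stood at 2756 and 1586 CPM (-0.80) in UT and at 2860 and 1378 CPM in ConA. Large subunit members with wide gaps were Rpl35, with 1104 and 638 CPM (-0.79) in UT and 1142 and 519 CPM (-1.14) in ConA, and Rpl31, with 780 and 502 CPM (-0.64) and 772 and 367 CPM (-1.07). In each of these 5 genes both non-naive values lay below both naive values. The 5 were named for their wide gaps, so this follows from the choice, and it was not counted over all members or genes.
A few members stood apart. Rps27l, a paralog of Rps27 that is known as a p53 target, was the member that was higher in non-naive cells of both libraries, with 63.8 against 127 CPM in UT (0.99, 0.74 to 1.24) and 83.1 against 117 CPM in ConA (0.50, 0.34 to 0.66). Rpl7l1 passed the fold in the UT library only (31.3 and 53.0 CPM, 0.76). Rpl27 lay at 1955 and 2094 CPM (0.10) in UT and 1883 and 1923 CPM (0.03) in ConA. Rpl36al differed by -0.09 in both.

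**Figure D2:**
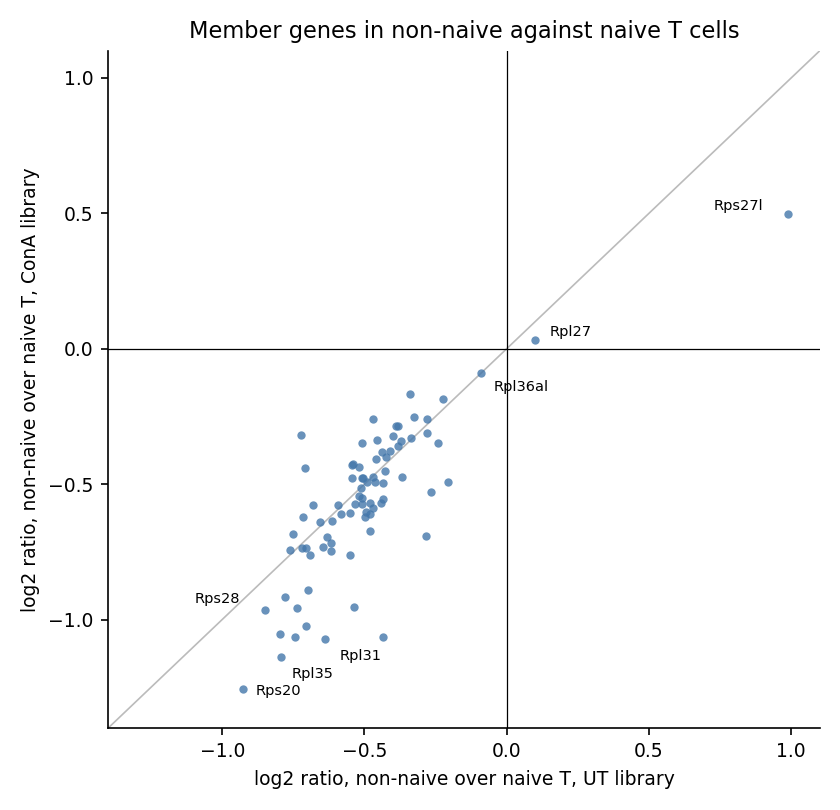
Log2 ratio of CPM in non-naive over naive T cells for 81 member genes, in the UT library (horizontal) and the ConA library (vertical). Each point is 1 gene and the grey line marks equal ratios. All but Rpl27 and Rps27l lie below 0 in both libraries, and Rps20 is lowest in both.

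Other genes of translation were counted by the same limits, against the shares of all genes above (19.5% lower and 38.3% higher in UT, 17.3% lower and 33.4% higher in ConA). A gene near 50 CPM can pass these limits through the higher of the 2 sums alone, as Mrpl4 does below. Of 23 other 5' TOP messengers, such as elongation factors, 7 were lower and 2 higher in non-naive cells of the UT library, and 7 lower and 1 higher in the ConA library. Eef1b2, a subunit of elongation factor 1, was lower in both (1176 and 774 CPM, -0.60; 1109 and 658 CPM, -0.75), while Vim, the gene of vimentin, was higher in both (0.63 and 0.62). The mitochondrial ribosomal protein genes, which encode a separate ribosome, had 25 of 37 measured higher and 0 lower in UT, above the share of all genes, and 10 of 25 higher and 2 lower in ConA, near it. Mrpl4 stood at 39.9 CPM in naive and 79.2 CPM in non-naive cells (0.99) in UT and at 35.4 and 62.1 CPM (0.81) in ConA. Of the ribosome biogenesis genes, which act in the nucleolus, 6 of 14 were higher and 0 lower in UT, with the higher ones near the share of all genes, and 2 of 13 were higher and 5 lower in ConA. Of the cell cycle genes 3 of 4 measured were higher in UT, and 2 of 3 higher and 1 lower in ConA. Their part in these differences was not tested.

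Between the libraries the member genes lay lower in the lymphoid gates of the ConA library and higher in its monocytes and macrophages. The summed share was also higher in its neutrophils, by an amount that depended on few cells. The share was lower in the ConA library in all 5 lymphoid gates compared: the log2 ratio of ConA over UT was -0.12 in naive T, -0.14 in non-naive T, -0.20 in NK, -0.26 in ILC1 and -0.14 in B cells. It was higher in monocytes and macrophages (0.31). In neutrophils it was 0.31 over all cells, 0.16 for the median cell, 0.098 with predicted doublets removed and 0.12 without cells with at least 3 cell cycle genes. It was close to 0 in cDCs (0.04) and pDCs (0.01). The intervals for counting excluded 0 in each of these 9 gates, which carries little weight with 1 library per group. The differences in percentage points were -1.78 in naive T, -1.49 in non-naive T, -1.64 in NK, -2.08 in ILC1, -1.25 in B cells and 2.52 in monocytes and macrophages. They are as large as the gaps between several cell types of the UT library, where cDC, B, NK and ILC1 cells lay between 14.1% and 12.5%, and the order of these gates differs between the libraries. The share was thus higher in ConA in 4 of 9 gates. The median of all measured genes lay above 0 in each gate, by up to 0.17 in neutrophils, and with that median set to 0 the counts of lower members were 10 in naive T, 26 in non-naive T, 36 in NK, 54 in ILC1 and 21 in B cells, and those of higher members 30 in neutrophils and 17 in monocytes and macrophages. The share of all genes under this centring was not counted, so these counts cannot be set against it. In neutrophils the medians of members and of all genes were 0.17 and 0.21 with predicted doublets removed, and 0.20 and 0.20 without cells with at least 3 cell cycle genes.

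**Figure D3:**
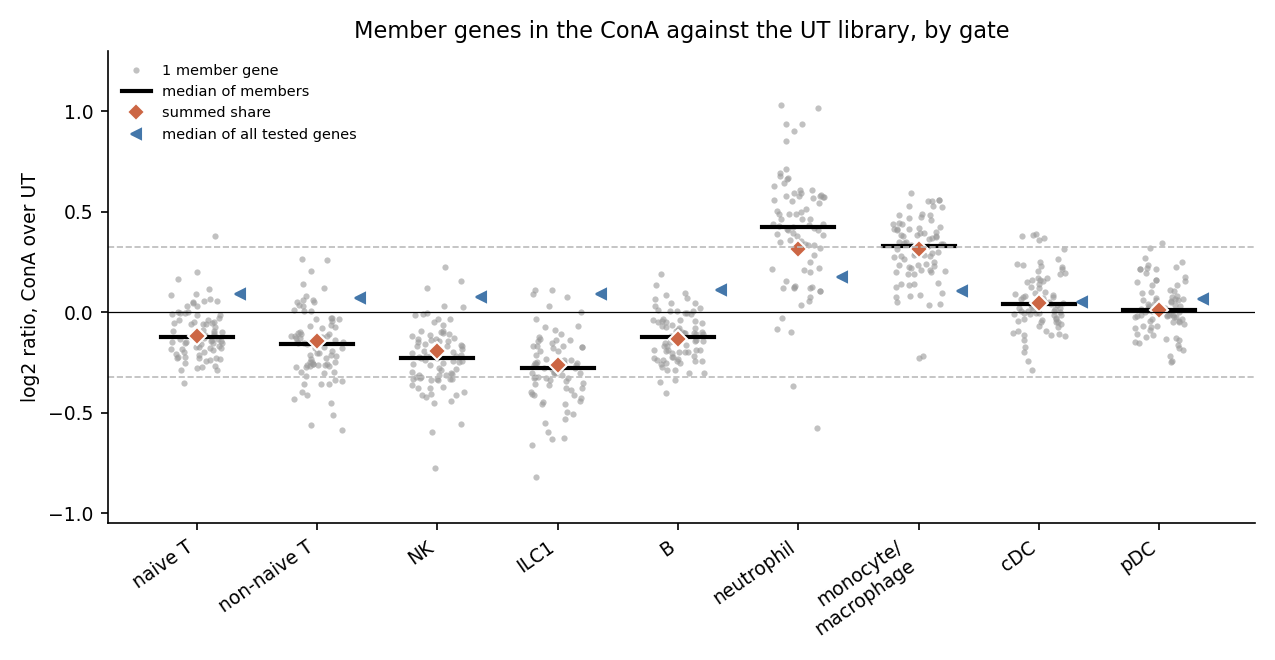
Log2 ratio of CPM, ConA over UT library, of each measured member gene (grey points) in 9 gates. Black bars are the median member, diamonds the ratio of the summed share, triangles the median of all measured genes of the gate, and dashed lines the limits of 25% higher and 20% lower. Points lie mostly below 0 in the 5 lymphoid gates and mostly above it in neutrophils and in monocytes and macrophages.

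In NK cells 21 of 81 measured members were lower in the ConA library and 0 were higher, where 16.9% of all genes were lower and 23.8% higher. The median member was at -0.23 and the median of all genes at 0.07. Rps2, a small subunit protein near the entry of the messenger RNA channel, had the widest gap, with 1755 CPM in UT and 1026 CPM in ConA (-0.78, -0.86 to -0.69). Rpl7a followed with 893 and 590 CPM (-0.60) and Rpl10a with 831 and 566 CPM (-0.55). Rps27 lay at 2091 and 2439 CPM (0.22), Rps14 at 2416 and 2686 CPM (0.15) and Rpl37a at 1775 and 1926 CPM (0.12), so members differed in direction. Without NK cells that expressed at least 3 cell cycle genes, 17 of 81 members were lower and 0 higher. Of all genes 17.4% were then lower and 23.1% higher, so the count of lower members was closer to the background.

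ILC1 cells, resident relatives of NK cells, gave the largest count of lower members, 31 lower and 0 higher of 80 measured members (all genes 17.1% lower and 29.1% higher), from only 54 UT cells. Rpl7a stood at 957 and 542 CPM (-0.82, -1.06 to -0.57), Rpl41 at 2039 and 1291 CPM (-0.66) and Rps20 at 2452 and 1582 CPM (-0.63). Without cells that expressed at least 3 cell cycle genes (51 UT and 201 ConA cells left), 21 of 80 were lower, against 16.3% of all genes. With predicted doublets removed (51 and 211 cells left), 21 of 80 were lower, against 16.5% of all genes. The count thus rested in part on few UT cells. Rps14 (0.11), Rpl10a (0.11) and Rpl22l1 (0.09) were the highest.

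Non-naive T cells had 12 of 82 measured members lower and 0 higher (all genes 16.4% lower and 22.6% higher), a share of members near the background. The median was -0.16 for members and 0.07 for all genes. Rps2 was again the lowest, with 2121 CPM in UT and 1414 CPM in ConA (-0.59, -0.63 to -0.54), next to Rps20 with 3135 and 2126 CPM (-0.56) and Rpl28 with 1377 and 965 CPM (-0.51). Rpl37a (1605 and 1925 CPM, 0.26), Rps27 (2104 and 2515 CPM, 0.26) and Rps14 (2351 and 2712 CPM, 0.21) stood at the other end, as they did in NK cells.
The mix of T cells in this gate differed between the libraries, and sub-gates were set after these values had been seen. Cells with Cd8a or Cd8b1 and no Cd4 were at 14.6% in UT (151 cells) and 14.7% in ConA (1114 cells). Cells with Cd4 and no Cd8 were at 15.7% (157 cells) and 13.8% (557 cells). Cells with Zbtb16, the transcription factor of NKT and related T cells, and no Foxp3 were at 16.6% (252 cells) and 13.8% (1109 cells). Gamma-delta T cells, with Trdc and a Trgc gene but no Trac, were at 14.3% (32 cells) and 12.6% (227 cells), and cells with Foxp3, the regulatory T cell factor, at 13% (29 cells) and 11.4% (59 cells). The sub-gates can share cells, since a cell with Cd4 can also hold Foxp3 or Zbtb16. The lower value in ConA was seen in 4 of these 5 sub-gates, which are not independent, and the CD8 cells were at 14.6% and 14.7%.

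Naive T cells and B cells differed less. In naive T cells 1 member was lower and 1 higher of 81 (all genes 9.14% lower and 16% higher), with a median of -0.13 against 0.09 for all genes. Rps27rt, a copy of Rps27 whose reads may be hard to assign, stood at 174 and 136 CPM (-0.35), Rplp0, a protein of the ribosomal stalk, at 3009 and 2467 CPM (-0.29) and Rps4x at 3613 and 2962 CPM (-0.29). Rps27l (63.8 and 83.1 CPM, 0.38) was the member that was higher, and Rpl37a (0.16) was also among the highest. Naive cells with Cd8 were at 24.1% in UT and 21.8% in ConA, above naive cells with Cd4 at 21.8% and 20.3%. In B cells 3 of 82 members were lower and 0 higher (all genes 9.73% lower and 16.4% higher), with a median of -0.12 against 0.11. The lowest were Rpl7l1 (54.3 and 41.0 CPM, -0.40), Rpl29 (1055 and 828 CPM, -0.35) and Rps27rt (137 and 109 CPM, -0.34), and among the highest were Rpl35 (656 and 720 CPM, 0.14) and Rpl37a (1514 and 1615 CPM, 0.09).

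In non-naive T and NK cells the median ratio of the measured ribosome biogenesis genes was lower than that of the ribosomal proteins. Several of these genes lay near the limit of 50 CPM, which can be passed in 1 library alone. In non-naive T cells 11 of 14 measured were lower in the ConA library and 0 higher, with a median of -0.53, where 16.4% of all genes were lower. In NK cells 9 of 13 were lower and 0 higher, with a median of -0.62, where 16.9% of all genes were lower. Cell cycle genes were lower in 2 of 4 measured in non-naive T cells (median -0.37; Stmn1 stood at 89.9 and 43.6 CPM) and in 0 of 3 in NK cells, where 1 was higher, and their part was not tested. Fbl, the methyltransferase fibrillarin of the nucleolus, stood at 184 and 103 CPM (-0.83) in non-naive T cells and at 181 and 91.5 CPM (-0.98) in NK cells, and Gar1, of the pseudouridylation complex, at 58.6 and 30.6 CPM (-0.94) and at 67.7 and 32.9 CPM (-1.04). Gar1 in both gates and Stmn1 in non-naive T cells reached 50 CPM in the UT library alone, which favours lower values. Ncl, far above that limit, stood at 607 and 474 CPM (-0.36) in non-naive T and 573 and 397 CPM (-0.53) in NK cells. Ubtf lay the other way, at 116 and 138 CPM (0.26) and at 119 and 131 CPM (0.14). Mitochondrial ribosomal proteins were lower in 16 of 37 and in 13 of 31, with 0 higher in both. Of the other 5' TOP messengers 4 of 23 in non-naive T cells, at the share of all genes, and 6 of 23 in NK cells were lower and 0 higher, led by Npm1, the gene of nucleophosmin, with 536 and 373 CPM (-0.52) and 431 and 279 CPM (-0.63). In naive T cells 1 of 12 biogenesis genes was lower and 2 were higher (median 0.00), and in B cells 1 of 11 was lower (median 0.00). Of the genes of the mTOR and translation control list 1 of 13 was lower and 3 higher in non-naive T cells, no more than the shares of all genes (16.4% lower and 22.6% higher). In NK cells 4 of 13 were lower and 1 higher, where 16.9% of all genes were lower and 23.8% higher. Beside Eif2ak2, those lower in NK cells were Larp4 (68.7 and 44.6 CPM, -0.62), Larp1 (176 and 129 CPM, -0.44) and Eif4e (71.3 and 56.9 CPM, -0.32). The lower one in non-naive T cells was Eif2ak2, the interferon-induced kinase PKR, with 163 and 43.5 CPM (-1.90). In NK cells Eif2ak2 stood at 129 and 28.5 CPM (-2.18). It was not particular to these gates. Its log2 ratio was -1.35 in naive T, -2.50 in B, -2.54 in neutrophils, -1.85 in monocytes and macrophages, -2.05 in cDCs and -1.81 in pDCs.

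Monocytes and macrophages had 42 of 82 measured members higher in the ConA library and 0 lower, where 28.9% of all genes were higher and 17.5% lower. The median member was at 0.33 and the median of all genes at 0.10. Rpl12, a protein at the base of the stalk, was highest, with 392 CPM in UT and 592 CPM in ConA (0.59, 0.52 to 0.67), followed by Rpl35 with 512 and 754 CPM (0.56). Below 0 lay Rps27l (258 and 220 CPM, -0.23) and Rpl36al (697 and 600 CPM, -0.22), and Rps27rt was at 76.7 and 78.6 CPM (0.03). The summed share was higher in each kind of cell in the gate: 10.2% and 11.3% in cells with non-classical monocyte genes such as Treml4 (410 and 198 cells), 11.0% and 13.4% in cells with C1q genes, which mark macrophages (128 and 51 cells), and 10.4% and 13.6% in the other cells with Ly6c2 or Ccr2 (1894 and 373 cells). Cell cycle genes were higher in 4 of 5 measured in this gate, of which Mki67, Top2a and Stmn1 reached 50 CPM in the ConA library alone. Without cells that expressed at least 3 cell cycle genes the share was 10.4% and 12.8%, and 36 members were higher, against 28.6% of all genes. Of the other 5' TOP messengers 12 of 23 were higher and 0 lower, while the mitochondrial ribosomal proteins were split, with 3 higher and 5 lower of 30.

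Neutrophils showed 55 of 80 measured members higher and 2 lower, where 40.5% of all genes were higher and 24.8% lower, with a median of 0.42 against 0.17. This count rested on few cells. Without the cells (28 in ConA, 4 in UT) that had at least 3 cell cycle genes, 22 members were higher, against 39.7% of all genes. The share was then 2.72% in UT and 2.96% in ConA (0.12). With predicted doublets removed, 15 were higher (0.10), against 40.6% of all genes. The 28 cycling cells were at 7.84% over their summed UMIs and at 3.90% in the median cell. Monocyte and macrophage markers, some of which neutrophils also express, summed to 2877 CPM in UT and 5702 CPM in ConA in this gate. The part of these markers in the count was not tested. Rpl35 stood at 65.9 and 135 CPM (1.03, 0.79 to 1.26) and Rpl36al at 56.3 and 108 CPM (0.94), and with predicted doublets removed their log2 ratios were 0.37 and 0.27. The lower 2 were Rps27rt (51.5 and 34.5 CPM, -0.58) and Rps9 (1467 and 1137 CPM, -0.37), and Rps27a was at 1152 and 1077 CPM (-0.10). Neutrophils with at least 2 of the granule genes Ltf, Camp and Ngp, which mark younger cells, were at 2.52% in UT (38 cells) and 2.91% in ConA (174 cells), and those with none at 2.88% (2255 cells) and 3.37% (214 cells).

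Dendritic cells differed little between the libraries. In cDCs 5 of 82 members were higher and 0 lower (all genes 27.9% higher and 19.7% lower). Rpl37a (1022 and 1336 CPM, 0.39), Rpl12 (577 and 753 CPM, 0.38) and Rps19 (1310 and 1704 CPM, 0.38) were highest, and Rps27l (302 and 248 CPM, -0.29), Rpl36al (676 and 570 CPM, -0.25) and Rpl27 (1719 and 1497 CPM, -0.20) lowest. Rps27l and Rpl36al were thus the lowest 2 in cDCs as in monocytes and macrophages. In pDCs 1 of 82 was higher and 0 lower (all genes 24% higher and 14.9% lower), with medians of 0.01 for members and 0.06 for all genes. That member was Rps19 (670 and 851 CPM, 0.35), followed by Rpl23a (874 and 1090 CPM, 0.32) and Rpl4 (391 and 471 CPM, 0.27). Rpl7l1 (50.6 and 42.5 CPM, -0.25), Rps24 (3613 and 3055 CPM, -0.24) and Rpl29 (983 and 844 CPM, -0.22) were lowest.

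Over all kept cells the share was 12.3% in UT and 13.1% in ConA (log2 ratio 0.08), although 5 of 9 gates were lower, and a sum over cells also follows their mix. Over the cells of these 9 gates it was 11.7% and 13.6%. With the ConA shares weighted by the UT gates' UMIs it was 11.7% and 12% (0.04). Of 81 measured members 2 were higher and 0 lower (all genes 26.1% higher and 24.1% lower): Rpl13a, with 1844 and 2428 CPM (0.40), and Rpl12, with 772 and 1013 CPM (0.39). Rps24 and Rplp1, which are among the members with the most UMIs, stood at 3864 and 4238 CPM and at 2926 and 3414 CPM. The stalk proteins and Rpsa differed in direction: Rplp2 was at 2396 and 2713 CPM, Rplp0 at 1612 and 1447 CPM, and Rpsa at 1911 and 1863 CPM.

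Relative to the summed members, some genes kept their direction across the 9 gates. Of 80 members measured in every gate, Rpl37a, Rpl5, Rps15, Rpl7, Rpl23a, Rpl4, Rpl13a and Rps15a took a larger part of the member UMIs in the ConA library in all 9, and Rpl29 a smaller part in all 9. The median log2 ratio over gates was 0.23 for Rpl37a and -0.17 for Rpl29. Rplp0 (-0.17) and Rpl7a (-0.16) were lower in 8 of 9. As CPM, 0 of the 80 were higher or lower in all 9. All of these gates come from the same UT and ConA libraries, so they are not independent of each other. A gene that differs between the libraries as a whole would keep its direction in each gate. The share of all genes that keep their direction across these gates was not counted.

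The make-up of the member UMIs differed between cell types in the members named here. They were picked for a wide range across gates or after their values were seen. Other members varied less: the log2 range across gates, as the mean of both libraries, was 2.11 for Rps9 and 0.20 for Rpl23. Rps9, a small subunit protein, made up 5.19% of the member UMIs of UT and 3.24% of ConA neutrophils, and between 0.775% and 1.87% in the other gates. As a level it was 1467 and 1137 CPM in neutrophils, within the range of the other gates (707 to 2416 CPM), while the summed members were low there. Rps27a, which encodes a fusion of ubiquitin and a ribosomal protein, made up 4.08% and 3.07% in neutrophils and at most 2.11% elsewhere, and Rps27 made up 2.90% and 2.20%. Rpl31 was highest in pDCs. It stood at 1459 CPM in UT and 1423 CPM in ConA pDCs, 1.40% and 1.36% of their member UMIs, and at no more than 0.420% in any other gate, naive T cells having the next highest level at 780 and 772 CPM. Rpl10 took 1.17% and 1.26% in pDCs against 0.520% and 0.525% in naive T cells, and Rpl12 0.888% and 0.983% in naive T cells against 0.376% and 0.458% in monocytes and macrophages.

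**Figure D4:**
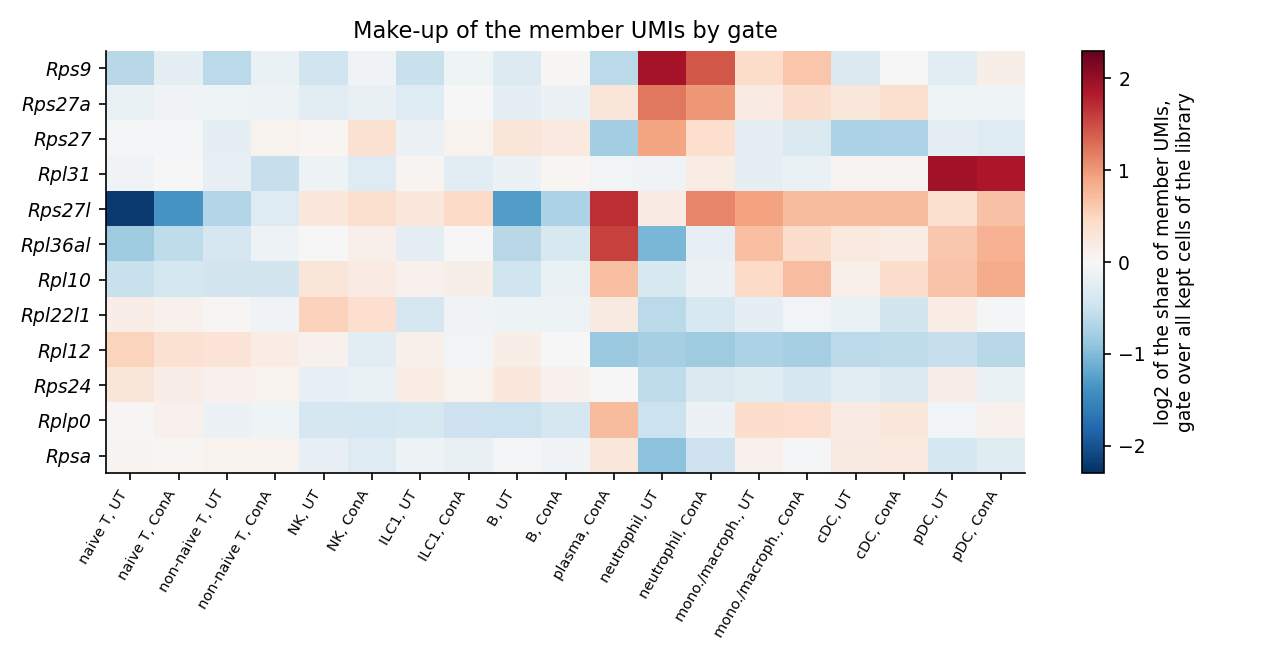
Share of 12 member genes among the member UMIs of a gate, as log2 of that share over the share in all kept cells of the same library (colour; red is a larger and blue a smaller part). The UT plasma gate is left out. Rps9 and Rps27a stand out in neutrophils, Rpl31 in pDCs, and Rps27l and Rpl36al in plasma cells.

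Several members are paralogs that can stand in for each other, and their balance differed by cell type. Rps27l made up 1.82% of the pair with Rps27 in UT naive T cells and 2.38% in ConA naive T cells, against 15.8% and 11.2% in monocytes and macrophages, 18.6% and 14.3% in cDCs, and 25.6% in ConA plasma cells. Rpl36al made up 24.8% and 24.7% of its pair with Rpl36a in naive T cells, 59.4% and 47.6% in monocytes and macrophages, 54.5% and 51.5% in pDCs, and 61.5% in ConA plasma cells. Rpl22l1, a regulated partner of Rpl22, made up 20% and 18.6% of that pair in NK cells, 16.1% and 15.9% in naive T cells, and 9.86% and 11.6% in ILC1 cells, and its level was highest in naive T cells at 410 and 376 CPM. Rpl3l, known from striated muscle, was at 22.6 and 14.6 CPM in neutrophils and at most 13.6 CPM elsewhere. Rpl7l1 stayed between 1.92% and 5.64% of its pair with Rpl7 outside the plasma gate, and Rps27rt between 3.44% and 5.91% of its pair with Rps27 there. Rpl39l had 108 and 75 UMIs in all, Rpl10l 1 and 0, and Rps23rg1 1 and 11. Rps19bp1, whose product is a partner of a ribosomal protein, stood at 23.0 and 21.7 CPM over all cells. Reads from near-identical copies can be split or lost in counting, so values for paralogs are uncertain. The 5 pseudogene rows of such genes in the files held 0.0863 and 0.0730 UMIs per 100 member UMIs.

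The share also moved with the depth of a cell. In UT NK cells it went from 7.64% in cells of 500 to 1500 UMIs to 18.1% in cells of 6000 or more, in UT B cells from 11.5% to 20.2%, and in UT naive T cells from 18.6% to 24.9%. In neutrophils it went from 3.86% to 2.41% between the first and the third depth class of the UT library, and was 5.67% over the summed UMIs of the 26 deepest cells, whose median cell was at 2.21%. Spearman's rho between share and UMIs of a cell was 0.50 in UT NK cells (579 cells), 0.55 in UT monocytes and macrophages (2438 cells) and -0.47 in UT neutrophils (2587 cells), where the share and the depth hold the same UMIs. Among cells of 3000 to 6000 UMIs the ConA over UT log2 ratio was -0.14 in naive T, -0.11 in non-naive T, -0.15 in NK, -0.25 in ILC1, -0.20 in B cells, 0.35 in monocytes and macrophages and 0.30 in neutrophils. The naive and non-naive T cells of that depth lay 0.57 apart in UT and 0.55 in ConA on the log2 scale.

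**Figure D5:**
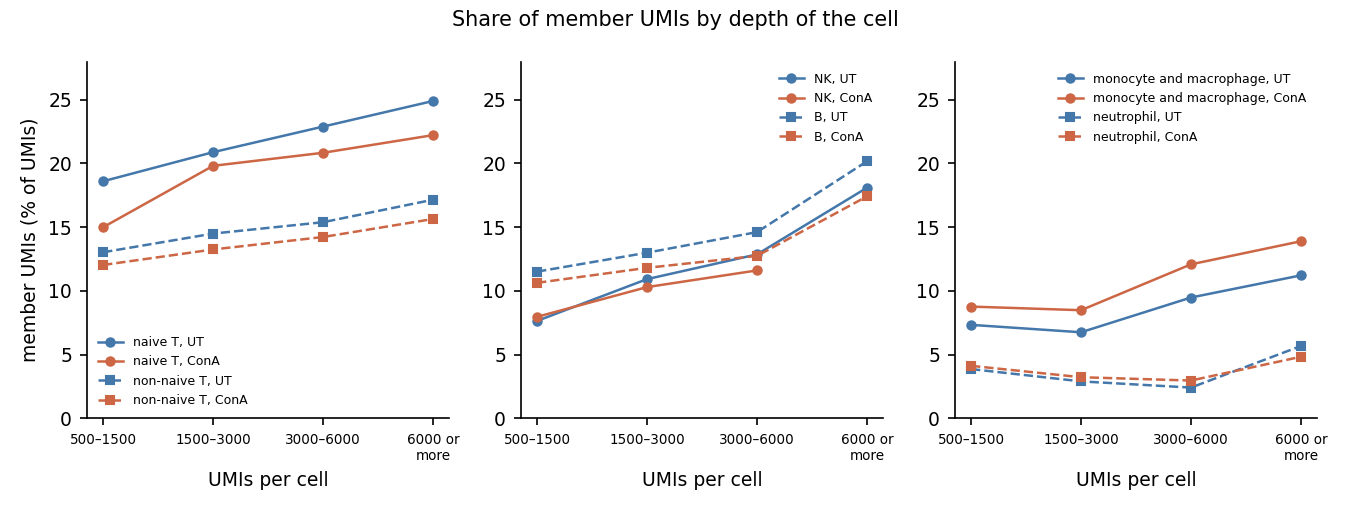
Share of member UMIs (vertical axis, percent of UMIs) by UMIs per cell (4 classes) in 6 gates of the UT and ConA libraries. Classes with fewer than 20 cells are left out. Lines of T, NK and B cells climb with depth, naive T cells lie above non-naive T cells in each class of the same library, and ConA monocytes and macrophages lie above those of UT in each class.

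Cells with cell cycle genes had larger shares than cells with none in every gate with enough cells of both kinds. In the UT library NK cells with at least 3 of 10 such genes were at 16.1% (26 cells) and those with none at 11.2% (210 cells), B cells at 15.6% (32 cells) and 12.9% (2138 cells), and non-naive T cells at 15.1% (51 cells) and 13.8% (164 cells). In the ConA library plasma cells were at 10.9% (68 cells) and 7.61% (32 cells). Cells with these genes were also deeper, with medians of 4980 and 2404 UMIs in UT NK cells, and depth and cycling cannot be told apart here.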

How the data were processed

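The values deposited by the authors are whole-number counts of UMIs for each barcode and gene. Per the file headers the software was cellranger 8.0.1. Other versions stand in the submitters' processing notes, which list Cell Ranger 6.0.1 and Seurat 4.3.0, with mm39 as the build. No barcode had fewer than 500 UMIs, so barcodes were filtered before deposit. From these counts, cells were kept with at least 500 UMIs, 300 genes and at most 10% mitochondrial UMIs. A cell needed 3 T, 3 NK and ILC1, 4 B, 5 plasma, 5 neutrophil, 5 monocyte and macrophage, 3 cDC or 5 pDC marker genes, limits that were set after marker detection by cluster had been seen. Naive T cells needed at least 4 naive and at most 5 non-naive genes, non-naive T cells at least 6 and at most 3. Cells over 5% haemoglobin UMIs entered no gate. Gates were exclusive, and predicted doublets were removed only as an alternative, because that step takes out most plasma cells. UMIs were summed per gate and library. Shares have exact Clopper-Pearson and ratios exact conditional binomial 95% intervals. The depth limits the precision of low members, and UMIs of 1 cell are not independent of its state, so intervals cover counting error only.

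Free RNA was estimated from S100a8 and S100a9 (Igkc for neutrophils, monocytes and macrophages) relative to all cells. Named genes were the 3 highest and 3 lowest members per comparison, the members with the most UMIs, the stalk proteins with Rpsa, paralog pairs, members whose part of the member UMIs varied most, and the extremes of the related lists. Some genes that this rule takes in are not reported here. Others were named after their values were seen: Rps27a, Rpl10 and the members that kept 1 direction. The member genes, lists and gates were chosen with earlier results of these data known. Python 3.11.15 with scipy 1.17.1 and pandas 2.3.3 was used. The fold calls were tested on simulated data.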

Additional observations from a re-analysis of the deposited data

Results flagged for a closer look

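The share of member UMIs lay on opposite sides in different gates. The log2 ratio of ConA over UT was 0.31 in neutrophils, 0.31 in monocytes and macrophages, 0.044 in cDCs and 0.010 in pDCs, and -0.12 in naive T, -0.14 in non-naive T, -0.20 in NK, -0.26 in ILC1 and -0.14 in B cells. The neutrophil value was 0.098 with predicted doublets removed and 0.12 without cells with at least 3 cell cycle genes. The difference between gates was not tested, since each group has 1 library.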

How the results depend on the processing

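The ConA over UT log2 ratio over all kept cells was 0.077 with predicted doublets removed, 0.079 with at least 1500 UMIs per cell, 0.075 without the 5 members with the most UMIs, 0.18 without mitochondrial, immunoglobulin, T cell receptor and haemoglobin genes and Malat1 in the total, 0.15 for the median cell and 0.039 with the UT mix of gates, a weighting chosen after the data were seen. The non-naive over naive T log2 ratio in UT was -0.52 with predicted doublets removed, -0.48 with gates read on cells thinned to 1000 UMIs, -0.55 with stricter gates, -0.54 with the other total, -0.56 for the median cell, -0.56 with free RNA subtracted, -0.52 with clusters, -0.50 without the top 5 members and -0.57 among cells of 3000 to 6000 UMIs, which was also chosen after the data were seen. In ConA it was -0.51 with thinned gates, -0.59 for the median cell, -0.59 with free RNA subtracted, -0.54 with clusters, -0.54 without the top 5 members and -0.55 among cells of 3000 to 6000 UMIs. In cDCs the ConA over UT ratio turned to -0.019 with thinned gates and -0.022 among cells of 3000 to 6000 UMIs, so 3 of 9 gates were higher there, against 4 under the other settings run. The cause was not tested.

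Of 116 alternative values for the share per gate, 62 moved beyond counting error, 52 did not and 2 turned sign. The NK ratio was -0.11 for the median cell, and the neutrophil ratio 0.16 for the median cell, 0.098 with predicted doublets removed and 0.69 with free RNA subtracted. Of 316 for named members, 315 kept their sign. Of 90 alternative counts of members per gate, 30 differed by more than 1.5 times or passed from or to 0. With a 1.5-fold limit, 2 members were lower in NK and 5 in ILC1 cells, 1 was higher in monocytes and macrophages and 17 in neutrophils. The share of all genes at this limit was not counted. Free RNA was not subtracted over all kept cells, and ILC1 cells had no cluster of their own. Depth limits the members near 50 CPM most, and the 54 UT ILC1 cells give the widest intervals of the gates compared. No paired analysis was possible because each group has 1 library.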
